A study of Mus musculus with 24 samples.

Results

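The quantity described here is the genotype difference in a stroke response: how far the PI minus CL difference of a gene in ciRS-7 knockout mice departed from the same difference in wild-type mice. It was taken as the KO response less the WT response, each formed inside 1 deposited table, for the 14211 genes present in both tables, of 14769 in the series. All 24 libraries of the series entered it. The source was the cortex of 12 mice, all males of 3 to 4 months, of which 6 were wild type (WT) and 6 lacked ciRS-7 (KO), and the labels tie 1 CL and 1 PI library to each animal. Every animal in both genotypes underwent transient occlusion of the middle cerebral artery for 1 h and was sampled after 1 day of reperfusion, so there was no unoperated group. The strain label is C57BL/6N-Cdr1asem1Nikr for WT and KO animals alike. It names an edit of the Cdr1as locus, which in KO animals is present from conception in every cell. CL and PI are marks on the labels that are not spelled out there and are used as given. A positive genotype difference means a more positive response in KO and a negative one a more negative response in KO.

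ciRS-7, also called Cdr1as, is a circular RNA of neurons that carries many binding sites for the microRNA miR-7 and a site for miR-671, which can cut it. The long noncoding RNA Cyrano (Oip5os1) promotes destruction of miR-7, so the molecules form a small network. A blocked cerebral artery starves cortex of oxygen and glucose, and its reopening is followed within a day by glial activation, an acute-phase and interferon response, heat shock and antioxidant gene induction, and loss of neuronal transcripts. The comparison asks whether the absence of ciRS-7 changes any of that.

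The microRNAs of the network are shown first, because ciRS-7 binds them and targets of miR-7 are examined later. Capitals mark the seed, bases 2 to 8. The sequences are RefSeq mature forms on GRCm38.p6, 5′ to 3′, and miR-7a and miR-7b share 1 seed while miR-671 has another.
mmu-miR-7a-5p: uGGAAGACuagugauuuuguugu
mmu-miR-7b-5p: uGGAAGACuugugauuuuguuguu
mmu-miR-671-5p: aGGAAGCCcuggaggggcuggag

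The deleted RNA checked the labels. In the table of PI WT and CL WT, Cdr1as stood at 11.31, 11.37 and 11.52 log2 CPM in PI WT (second lowest, median and second highest of 6 libraries) and at 11.76, 11.88 and 11.93 in CL WT. In the tables that set KO beside WT, the highest deposited KO value was 0.0601 CPM in CL and 0.166 CPM in PI, so both KO groups lacked it. It is not listed in the table of PI KO and CL KO and therefore has no genotype difference in response. CPM scales reads to the depth of the library. Levels are given throughout as the second lowest, median and second highest library, because the lowest and highest cannot be recovered from the deposited values. Overlap between groups refers to these inner ranges. The WT and KO tables were scaled separately, so a level in one is not strictly comparable with a level in the other. Depth, in M reads and worked out from the steps between low values, ran from 3.74 in the CL library of animal KO6 to 10.3 in another CL KO library, with group medians of 6.43 to 7.08. That shallowest library was at one end of its group in 89.5% of genes, and the PI library of animal WT4 in 80.8%, where 66.7% would hold if libraries took the ends evenly.

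No gene had a genotype difference that passed the test. Of 14211 genes tested by the moderated trimmed-mean test (processed with limma, Benjamini-Hochberg adjusted), 0% were called and the smallest adjusted p was 0.992. Without adjustment 646 genes had p under 0.05, or 4.55%, made up of 284 more positive (2%) and 362 more negative (2.55%) in KO. If no gene differed, about 5 genes per 100 would have such a p, so this share is not above chance. An ordinary limma fit to the deposited values called 1940 genes, and 1895 with the animal as a replicate block. Those values have their extremes drawn in to the quartiles of the group, so their spread is smaller than that of the libraries. The median difference over all genes was 0.00 on the log2 scale, with quartiles of -0.12 and 0.10, and 49.9% of genes were above 0. What follows therefore describes how alike the responses were and which kinds of genes leaned one way, not genes shown to differ.

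The response itself was present in both genotypes. In WT 1520 of the 14211 shared genes were called (10.7%), and in KO 1433 (10.1%), at an adjusted p under 0.05. By direction, 739 were higher (5.2%) and 781 lower (5.5%) in PI WT, against 726 higher (5.11%) and 707 lower (4.98%) in PI KO. Of all genes called in WT 49.1% were higher, and of those called in KO 50.8%. With the median gene of every group set to 0, a shift of 0.03 in WT and 0.04 in KO, those shares were 37.7% and 36.7%. Both genotypes called 850 genes (5.98%), and all 850 moved in the same direction in WT and KO. A further 670 were called in WT only, 640 of them with the sign of the KO response, and 583 in KO only, 557 of them with that of the WT response. Across genes the 2 responses had a Pearson's r of 0.58 and a Spearman's rho of 0.56. This is a description over genes, which are not independent, and the libraries of the 2 responses come from different animals.

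**Figure D1:**
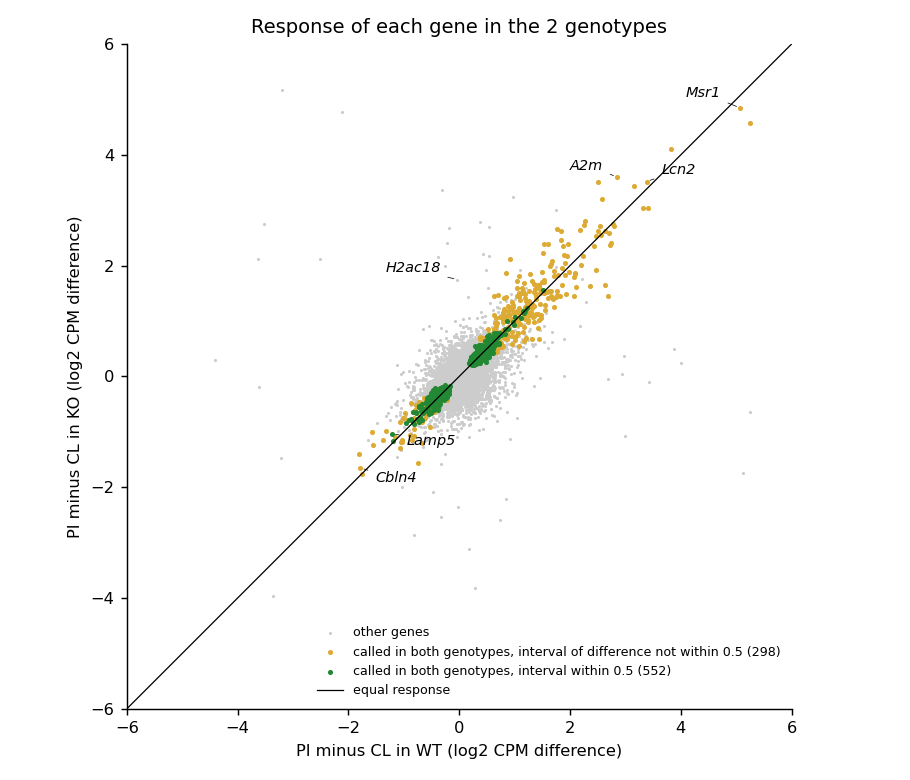
Response of each gene in WT (horizontal axis) and in KO (vertical axis), both as PI minus CL on the log2 CPM scale. Green points are the 552 genes called in both genotypes with the 95% interval of the difference within 0.5, yellow points the other 298 called in both, grey points the rest, and the line marks an equal response; 1 gene lies outside the axes.

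A missed threshold does not show a like response, so likeness was read from intervals. A gene was counted as responding alike if it was called in both genotypes and the 95% interval of its genotype difference lay within 0.5 log2 of 0. That held for 552 genes (3.88% of those tested), or 64.9% of the 850 called in both. With a bound of 0.25 the count was 178 and with a bound of 1 it was 750. The other 298 of the 850 are not shown to differ: 23 of the 850 had an unadjusted p under 0.05 for the difference. Precision differed with expression. The interval reached 0.34 to either side of the estimate in the median gene, 0.20 among genes at 6 log2 CPM and over, and 0.83 among those under 2.

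Stat3, the transcription factor that carries gp130 cytokine signals into the nucleus, led the genes that rose by at least 1 log2 in both genotypes. It stood at 4.83, 4.88 and 4.99 log2 CPM in CL WT and at 5.84, 6.08 and 6.17 in PI WT. In KO it stood at 4.75, 4.82 and 4.95 in CL and at 5.82, 6.06 and 6.12 in PI. The CL and PI ranges lay apart in both genotypes, and the rise was 1.15 ± 0.09 (SE, n = 6 animals) in WT and 1.18 ± 0.10 in KO, with a difference of 0.03 and an interval of -0.27 to 0.33. Metallothionein Mt1, which binds zinc and copper, rose by 1.23 ± 0.11 in WT and 1.24 ± 0.11 in KO, with an interval of -0.34 to 0.36 for the difference. The other genes with the narrowest intervals at a rise of at least 1 log2 were of several kinds, and Arpc1b, Plce1 and Aldh1a2 among them reached beyond the 0.5 bound, to -0.51, -0.51 and -0.56. Ptprc (CD45, a leukocyte and microglial surface phosphatase) rose by 1.00 and 1.06. Cd63 (a lysosomal tetraspanin), Dab2 (an endocytic adaptor), Arpc1b (an actin-branching subunit) and Serpinh1 (a collagen chaperone) rose by 1.06 to 1.56 in either genotype. Fgf2, a growth factor, rose by 1.16 and 1.14, the phospholipase Plce1 by 1.31 and 1.30, and Aldh1a2, which makes retinoic acid in the meninges, by 1.85 and 1.66.

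Among genes that fell alike, Camk2n1, an inhibitor of the synaptic kinase CaMKII, stood at 10.56, 10.56 and 10.63 log2 CPM in CL WT and at 9.97, 10.05 and 10.09 in PI WT. In KO the values were 10.55, 10.58 and 10.80 in CL and 10.08, 10.11 and 10.11 in PI. The groups did not overlap within either genotype, the falls were 0.54 ± 0.05 and 0.53 ± 0.07 (SE), and the interval of the difference was -0.17 to 0.20. Hlf, a circadian output transcription factor, fell by 0.82 and 0.86, Fgf13, a regulator of sodium channels, by 0.57 and 0.60, and Enpp2 (autotaxin) by 0.69 and 0.62. Negr1, a neural adhesion molecule, and Ly6e, a surface protein, also fell in both, by 0.54 and 0.50 and by 0.65 and 0.67. Lamp5, which marks a class of cortical interneurons and upper-layer neurons, fell by 1.21 in WT and 1.03 in KO. Abca9, a lipid transporter, fell by 1.20 and 1.17.

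Responses were of similar size in the 2 genotypes over the whole range. Genes were binned by the mean of their 2 responses, which favours neither genotype. The 41 genes with a mean rise over 2 log2 had a median of 2.57 in WT and 2.63 in KO. In the 181 with a mean rise of 1 to 2 the medians were 1.30 and 1.37, and in the 418 with 0.5 to 1 they were 0.67 and 0.64. The 253 genes that fell by 0.5 to 1 had medians of -0.63 and -0.63, and the 37 that fell by more than 1 had -1.16 and -1.20. In none of these 5 bins did the medians of the genotypes differ by more than 0.1. The greatest rises carried the least precision: none of the 41 met the 0.5 bound for likeness although 36 were called in both genotypes.

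Reactive astrocyte genes, switched on when astrocytes respond to injury, rose in both genotypes, with 13 of 17 listed members called in WT and 15 in KO. The secreted protein Lcn2, one of them, stood at 0.01, 0.43 and 0.60 log2 CPM in CL WT and at 3.64, 3.74 and 3.89 in PI WT. In CL KO it stood at -0.07, 0.17 and 0.46 and in PI KO at 3.55, 3.72 and 3.80. Its rise was 3.38 ± 0.20 (SE) in WT and 3.52 ± 0.20 in KO, and the interval of the difference, -0.45 to 0.72, was too wide for the likeness count. The list median was 1.91 in WT and 1.63 in KO, while the median of the members' differences was 0.10, with 10 of 17 positive, so the 2 summaries differ in sign. That 0.10 was 0.02 without WT2, 0.06 without WT4, 0.05 without KO2, 0.03 without KO3, 0.05 without KO5 and 0.16 without KO4. For the gp130 pathway, Osmr (the oncostatin M receptor) rose by 2.51 and 2.62 and its feedback inhibitor Socs3 by 2.43 and 2.35.

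Phagocytic, complement and Toll-like receptor genes rose in both genotypes. Of those called in both, 5 of 15, 4 of 9 and 0 of 4 met the likeness bound, against 64.9% of all genes called in both. Over all genes the bound was met by 7 of 135 called in both at a mean rise of 1 to 2. It was met by 446 of 454 at a mean response of -0.5 to 0.5. The bound thus varies with response size and interval width, and these counts do not show less alike responses. Of 24 phagocytic and lysosomal genes 14 were called higher in WT and 15 in KO, with medians of 0.69 and 0.78. The Fc receptor Fcgr2b, one of that list, rose by 1.64 ± 0.19 (SE) in WT and 1.99 ± 0.21 in KO. Of 16 complement genes 10 were called higher in each genotype, with medians of 0.67 and 0.77. C3ar1, the receptor for a complement fragment, rose by 1.93 ± 0.18 and 1.48 ± 0.21, and C5ar1 by 2.24 ± 0.41 and 2.17 ± 0.34. Tlr2, a sensor of bacterial and damage products, rose by 2.73 and 2.40, and Cd14, its partner, by 3.41 and 3.04. Microglial markers had medians of 0.41 and 0.47. Of 14 neutrophil and monocyte markers only 1 is listed in both tables.

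The most strongly raised stress genes came with wide intervals for the difference, as in Hmox1 (-1.17 to 1.13). Hmox1, the haem-degrading enzyme induced through NRF2, rose by 2.78 ± 0.36 (SE) in WT and 2.76 ± 0.35 in KO. The NRF2 list as a whole had 9 of 22 members called higher in each genotype, and 4 of the 6 called in both met the likeness bound. The small heat shock protein Hspb1 rose by 2.57 and 2.55, and Hspa1b, an inducible Hsp70, by 2.59 ± 0.35 and 3.20 ± 0.54. Of the 23 cholesterol synthesis genes 6 were called higher in WT and 7 in KO, and 4 of the 5 called in both met the bound.

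Lists of synaptic release, postsynaptic scaffold and potassium channel genes had negative median responses in both genotypes. Of 28 synaptic vesicle release genes 13 were called lower in WT and 14 in KO, against 5.5% and 4.98% of all genes. Called higher were 2 in WT and 1 in KO. All 10 called in both met the likeness bound, against 64.9% of all genes called in both. At a mean response of -0.5 to 0.5, however, 446 of 454 genes called in both met it. The likeness counts of these neuronal lists therefore do not show more alike responses than other genes with small responses. Stx1a, a SNARE protein of the presynaptic membrane, fell by 0.65 ± 0.09 (SE) and 0.59 ± 0.08. Of 21 postsynaptic scaffold and CaMKII genes 12 and 11 were called lower, and all 8 called in both met the bound. Homer1, a scaffold that links glutamate receptors to calcium stores, fell by 0.62 and 0.60. Potassium channel genes had 12 and 10 of 38 called lower, and 2 and 1 called higher. Of the 10 called in both 9 met the bound, with Kcnq3 falling by 0.49 and 0.51. Neuropeptide genes did not share this, with list medians of 0.07 in WT and 0.13 in KO. Cbln4, a secreted synapse organiser, fell by 1.78 ± 0.18 and 1.65 ± 0.23. The neuron markers Camk2a and Nrgn fell by 0.44 and 0.59 and by 0.38 and 0.37, and the marker list had medians of -0.20 and -0.18 and a median difference of 0.00. In bulk tissue fewer cells of a type and less RNA per cell cannot be told apart.

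The ciRS-7 network and the targets of miR-7 were described in full because the deletion acts there. Of 10 network members 4 are listed in both tables, and 1 of the 4 leaned. Cdr1os, the long noncoding RNA transcribed across the Cdr1as locus (ENSMUSG00000071753, GRCm38 chrX:61116378-61292484, plus strand), stood at 6.78, 6.79 and 6.84 log2 CPM in CL WT and 6.60, 6.78 and 6.82 in PI WT. In KO it stood at 8.48, 8.59 and 8.69 in CL and 8.11, 8.21 and 8.27 in PI. Within the tables that compare genotypes it was higher in KO by 1.80 ± 0.06 (SE) in CL and 1.46 ± 0.07 in PI (trimmed-mean test, adjusted p of 4.9e-09 and 1.3e-06). Its response was -0.05 ± 0.07 in WT, where the groups overlapped, and -0.39 ± 0.07 in KO, where they did not (adjusted p 0.00363). The difference of -0.34 ± 0.10 had an interval of -0.54 to -0.13 and did not pass adjustment over all genes. Cyrano (Oip5os1) differed by -0.07 ± 0.08, Hnrnpk by 0.00 ± 0.07 and Chpf2 by -0.13 ± 0.13, each with an interval that includes 0. Reads of Cdr1os and of RNAs on the opposite strand can be told apart only if counting used the strand. Use of the strand is not given in the sources used here.

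The 23 listed targets of miR-7, the microRNA whose seed is printed above, had medians of -0.07 in WT and -0.09 in KO. The median difference was -0.03, with 11 of 23 positive, against 49.9% of all genes, and 1 had an unadjusted p under 0.05. That gene was Park7, a redox-sensitive chaperone, with a response of -0.08 in WT and 0.16 in KO. The immediate early gene Fos differed by -0.14 ± 0.32 (SE) and Klf4 by -0.54 ± 0.30. Pax6 differed by 0.66 ± 0.33.

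Interferon-stimulated genes leaned further upward in KO than any other list with at least 5 listed members. These genes are switched on by type I or type II interferon through STAT factors and encode antiviral proteins. Of 22 listed, 17 were called higher in WT and 19 in KO, 16 of 22 had a positive difference and 4 had an unadjusted p under 0.05, all positive, where 2% of all genes had one. The list median was 1.04 in WT, 1.34 in KO and 0.36 for the difference, against 0.00 over all genes. Compared within the genotype tables, the median of KO minus WT over the list was -0.05 in CL and 0.21 in PI. Per animal, the interferon list median ran from 0.64 to 1.26 in WT and from 1.18 to 1.38 in KO on the deposited values, so the genotypes overlapped. Microglia are one source of this response, and their 10 markers summed in WT to 185 to 197 CPM for CL and 208 to 238 for PI, and in KO to 195 to 214 for CL and 235 to 284 for PI. The part of these cells in the interferon result was not tested.

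Ifit3 (ENSMUSG00000074896, chr19:34583531-34588731) and Igtp (ENSMUSG00000078853, chr11:58199556-58207591), an RNA-binding antiviral protein and an interferon-induced GTPase, were among the 4. Their promoters, from 250 bases before the start to 50 after it (RefSeq, GRCm38.p6, plus strand), are printed because this list leaned most. Capitals mark the interferon response element searched for on both strands as GAAANNGAAA. That element was in the promoters of 12 of the 17 listed genes that have an entry, 70.6%, against 3.99% of all 27025 promoters of that length. A match is a description of the letters, and the motif was not tested against the responses.
Ifit3 promoter, chr19:34583279-34583578: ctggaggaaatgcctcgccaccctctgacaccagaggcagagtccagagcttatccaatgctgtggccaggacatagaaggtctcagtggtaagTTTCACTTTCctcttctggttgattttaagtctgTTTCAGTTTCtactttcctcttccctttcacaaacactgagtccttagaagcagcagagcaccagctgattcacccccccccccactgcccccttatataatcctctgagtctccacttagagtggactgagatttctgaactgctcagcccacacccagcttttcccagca
Igtp promoter, chr11:58199306-58199605: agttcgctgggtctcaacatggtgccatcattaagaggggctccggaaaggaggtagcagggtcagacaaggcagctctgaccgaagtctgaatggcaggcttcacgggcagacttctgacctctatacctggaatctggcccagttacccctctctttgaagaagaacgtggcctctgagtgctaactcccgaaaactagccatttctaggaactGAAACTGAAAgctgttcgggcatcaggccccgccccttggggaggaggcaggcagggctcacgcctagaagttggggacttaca

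Ifit3 stood at 2.32, 2.52 and 2.61 log2 CPM in CL WT and at 3.28, 3.55 and 3.73 in PI WT. In KO it stood at 2.06, 2.17 and 2.37 in CL and 3.69, 3.79 and 3.91 in PI. CL and PI did not overlap in either genotype, and the KO groups lay further apart. The rise was 1.04 ± 0.15 (SE) in WT and 1.60 ± 0.14 in KO, a difference of 0.56 ± 0.20 with an interval of 0.14 to 0.99. Igtp went from 2.23, 2.38 and 2.44 in CL WT to 2.91, 2.98 and 3.04 in PI WT. In KO it went from 1.46, 1.91 and 2.28 to 3.06, 3.41 and 3.45, so its CL KO libraries spread more widely than any of the other 3 groups. The rises were 0.62 ± 0.13 and 1.44 ± 0.22, and the difference was 0.83 ± 0.27 with an interval of 0.27 to 1.38.

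Rtp4, a receptor chaperone induced by interferon, rose in KO alone among the calls, by 1.59 ± 0.29 (SE) against 0.51 ± 0.28 in WT. Its difference of 1.08 ± 0.39 did not pass the adjusted test. Ifit2 differed by 0.39 ± 0.18. Gbp6, an interferon-induced GTPase that is not on the list, was 1 of the 10 genes with the strongest positive lean: it rose by 0.91 ± 0.23 in WT and 2.13 ± 0.21 in KO, a difference of 1.21 ± 0.33. The list was not uniform. Irf9, a DNA-binding partner of STAT factors, differed by -0.25 ± 0.24, Irf1 by -0.20 ± 0.37 and Oasl2 by -0.46 ± 0.83, and Trim30a rose by 1.31 and 1.23.

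**Figure D2:**
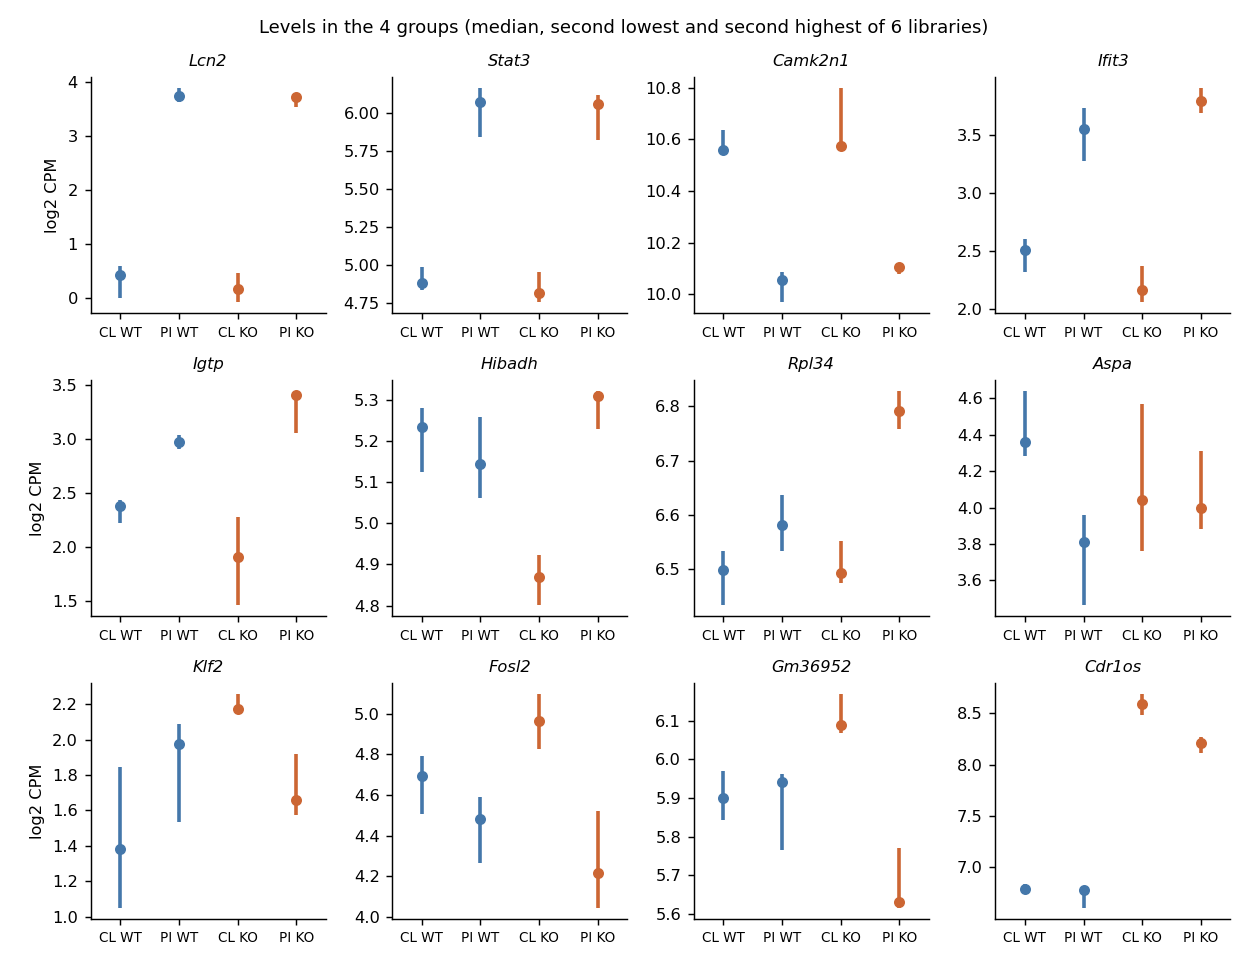
Log2 CPM of 12 genes in the 4 groups; the point is the median and the line runs from the second lowest to the second highest of 6 libraries. Lcn2, Stat3 and Camk2n1 moved by similar amounts in WT (blue) and KO (orange), and the other 9 are examples of leaning genes; WT and KO come from separately scaled tables.

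Myelin genes were the second list that leaned upward. Myelin is the lipid-rich sheath that oligodendrocytes wrap around axons. Of 23 listed myelin genes 22 had a positive difference, against 49.9% of all genes, and the list median was -0.24 in WT, -0.06 in KO and 0.22 for the difference. In WT 5 were called lower and 1 higher, and in KO 1 lower and 1 higher. Over all genes 5.5% were called lower in WT and 4.98% in KO, and 5.2% and 5.11% higher. Only 1 of the 23 had an unadjusted p under 0.05 for the difference, so the calls are not read as a genotype difference. The 10 oligodendrocyte markers, all of which are on the myelin list, were all positive, with medians of -0.36, -0.07 and 0.25. Oligodendrocyte precursor genes did not lean so, with 7 of 16 positive and a median difference of -0.04. Summed over these 10 markers, the deposited level in WT was 2262 to 2467 CPM for CL and 1599 to 2234 for PI. In KO it was 1796 to 2450 for CL and 1768 to 1993 for PI, and no marker was under the limit of 3 reads. The CL KO libraries therefore reached lower than those of CL WT. Per animal, the myelin median ran from -0.38 to 0.06 in WT and from -0.16 to 0.12 in KO, so the genotypes overlapped. The part of oligodendrocyte RNA content in the myelin result was not tested.

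Aspa, the enzyme that splits N-acetylaspartate in oligodendrocytes, stood at 4.28, 4.36 and 4.64 log2 CPM in CL WT and 3.46, 3.81 and 3.96 in PI WT. In KO it stood at 3.76, 4.04 and 4.57 in CL and 3.88, 4.00 and 4.31 in PI. The WT groups did not overlap and the KO groups did, with responses of -0.65 ± 0.15 (SE) and -0.06 ± 0.21 and a difference of 0.60 ± 0.28. Mbp, a major protein of the sheath, differed by 0.23 ± 0.22. Trf, the iron carrier made by oligodendrocytes, rose by 1.18 and 1.41. Cryab, a small heat shock protein, was the 1 listed member with a negative difference, at -0.30 ± 0.32. The 6 listed striatum markers, from a region next to the cortex, also had a positive median difference, 0.18, with 5 of 6 positive. It was 0.11 without WT1 and 0.09 without WT3. Their summed CPM in WT was 218 to 279 for CL and 173 to 208 for PI, and in KO 205 to 231 for CL and 175 to 198 for PI.

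Cytosolic ribosomal proteins leaned upward together by a small amount. All 48 listed had a positive difference, from 0.00 to 0.29, with a median of 0.14. Of these, 11 had an unadjusted p under 0.05 where 2% of all genes had one in that direction. In WT 7 were called higher and in KO 25, with medians of 0.11 and 0.25. Over all genes 5.2% were called higher in WT and 5.11% in KO. Within the genotype tables the list median differed between KO and WT by 0.00 in CL and 0.13 in PI. Rpl34 stood at 6.43, 6.50 and 6.53 log2 CPM in CL WT, 6.53, 6.58 and 6.64 in PI WT, 6.47, 6.49 and 6.55 in CL KO and 6.76, 6.79 and 6.83 in PI KO. Its PI KO values lay above those of the other 3 groups, and its difference was 0.20 ± 0.07 (SE). Rplp0, a stalk protein of the large subunit, rose by 0.40 ± 0.09 in WT and 0.57 ± 0.10 in KO. The mitochondrial ribosomal protein Mrpl18, which is not on the list, was among the 10 strongest positive leans at 0.46 ± 0.12.

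Proteasome and respiratory chain subunits leaned the same way by about as little. Of 31 proteasome subunits 29 were positive, with a median of 0.10. Called higher were 1 in WT and 13 in KO, against 5.2% and 5.11% of all genes. Psmc2, an ATPase of the proteasome cap, rose by 0.40 ± 0.08 (SE) in KO, and its response of 0.21 ± 0.07 in WT did not pass. Of 41 nuclear-encoded respiratory chain subunits 32 were positive, with a median of 0.11. None was called in KO and 2 were called lower in WT. Over all genes 5.5% were called lower in WT and 4.98% in KO, so these few calls are not read as a genotype difference. Per animal the ribosomal median ran from 0.06 to 0.17 in WT and 0.22 to 0.34 in KO, and the proteasome median from 0.08 to 0.20 and 0.20 to 0.27, where the ranges met. The ribosomal ranges did not overlap. Deposited values have their extremes drawn in by group, which narrows each genotype's range, so that absence of overlap carries less weight than it would in the original values.

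Of the remaining lists with high medians, heat shock and chaperone genes had 0.12 with 16 of 23 positive. Their member Hsp90aa1 rose by 0.34 ± 0.08 (SE) in WT and 0.53 ± 0.11 in KO. Glucocorticoid target genes also had 0.12, with 11 of 15 positive and 2 at an unadjusted p under 0.05. Those were Mt2, which rose by 1.87 ± 0.14 in WT and 2.35 ± 0.10 in KO, and Errfi1, a feedback inhibitor of the EGF receptor, at -0.03 and 0.37. The neighbouring Mt1 rose alike in both genotypes. Of 17 acute-phase and interleukin-1 genes 7 are listed, with a median difference of 0.16 although the list median was 2.43 in WT and 1.45 in KO. It was 0.09 without WT2, 0.10 without KO1 and 0.10 without KO5. The protease inhibitor A2m rose by 2.84 ± 0.18 and 3.60 ± 0.23, a difference of 0.76 ± 0.32.

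**Figure D3:**
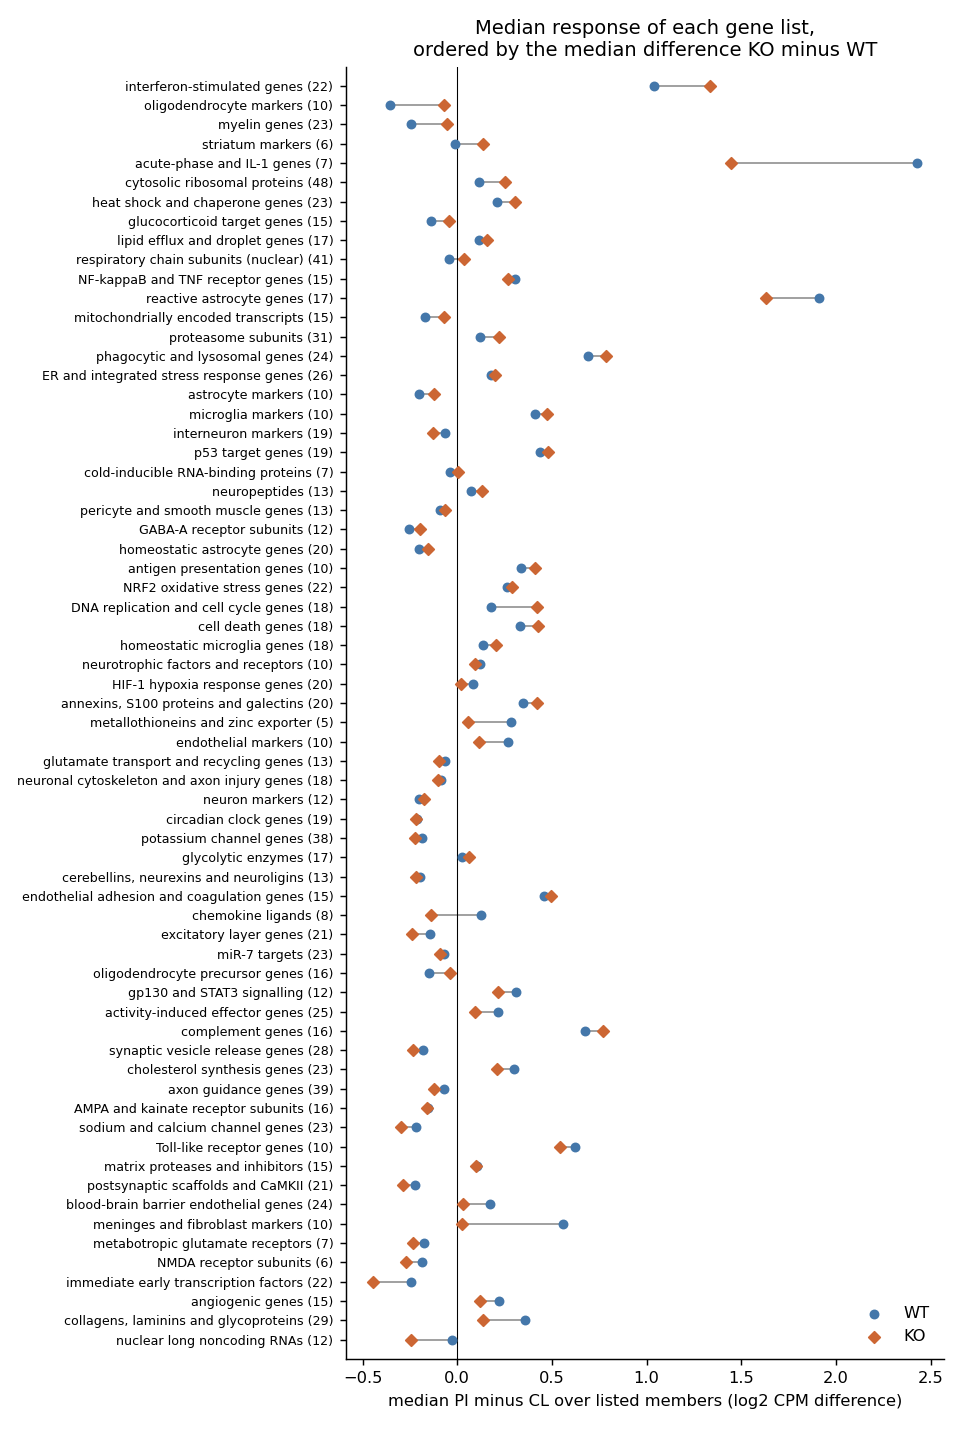
Median PI minus CL response over the listed members of each gene list with at least 5 members in both tables, in WT (circles) and KO (diamonds), with the number of members in parentheses. Lists run from the highest median genotype difference at the top (interferon-stimulated genes, 0.36) to the lowest at the bottom (nuclear long noncoding RNAs, -0.21); the line joins the 2 list medians, and its length is not the median of the members' differences.

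Nuclear long noncoding RNAs, transcripts that stay largely in the nucleus, leaned furthest downward among lists of that size. Of 12 listed, 10 had a negative difference, against 50.1% of all genes, and the medians were -0.03 in WT, -0.25 in KO and -0.21 for the difference. Within the genotype tables the list differed by 0.01 in CL and -0.20 in PI. Norad, a listed member that binds PUMILIO proteins, is found mostly in the cytoplasm and so departs from the name of the list. It stood at 6.75, 6.83 and 6.88 log2 CPM in CL WT and 6.68, 6.76 and 6.79 in PI WT. In KO it stood at 6.80, 6.83 and 6.85 in CL and 6.44, 6.49 and 6.61 in PI, below the other 3 groups. Its difference was -0.24 ± 0.08 (SE). Malat1, a component of nuclear speckles, stood at 13.83, 14.10 and 14.12 in CL WT, 13.98, 14.20 and 14.25 in PI WT, 13.92, 14.02 and 14.21 in CL KO and 13.86, 13.90 and 13.97 in PI KO. All of these ranges but those of PI WT and PI KO overlapped. That gap, from 13.97 to 13.98, lies between separately scaled values and is not read as a separation. The genotype difference of Malat1 was -0.26 ± 0.14. Miat differed by -0.40 ± 0.22, and Neat1, the scaffold of paraspeckles, rose by 1.16 ± 0.34 in WT and 0.64 ± 0.11 in KO.

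Collagens, laminins and other matrix glycoproteins also leaned downward, with 23 of 29 negative. The list medians were 0.36 in WT and 0.13 in KO, with a median difference of -0.21. In WT 10 were called higher and 2 lower, and in KO 4 higher and 1 lower. Over all genes 5.2% were called higher in WT and 5.11% in KO, and 5.5% and 4.98% lower. Only 1 of the 29 had an unadjusted p under 0.05 for the difference, so the calls are not read as a genotype difference. Lama5, a laminin chain of vascular basement membranes, stood at 1.41, 1.87 and 2.01 log2 CPM in CL WT and 2.46, 2.89 and 3.23 in PI WT. In KO it stood at 1.92, 1.98 and 2.19 in CL and 2.52, 2.55 and 2.63 in PI. It rose in both, by 1.08 ± 0.25 (SE) and 0.54 ± 0.16, and the difference was -0.54 ± 0.30. Col5a1 differed by -0.44 ± 0.24 and Lamc3 by -0.82 ± 0.38, while Tnc, a matrix protein of injured tissue, rose by 1.71 and 1.82. Per animal the list median ran from 0.22 to 0.45 in WT and from 0.07 to 0.27 in KO.

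Markers of cells that make matrix did not give 1 direction. The 10 meninges and fibroblast markers, all listed, had medians of 0.56 in WT and 0.02 in KO and a median difference of -0.11, with 8 negative (-0.18 without WT6). Some of them, such as Col1a1 and Dcn, are matrix genes themselves. Their summed CPM in WT was 335 to 429 for CL and 236 to 328 for PI, and in KO 340 to 439 for CL and 308 to 371 for PI. In WT the PI sums therefore lay below those of CL. In KO the ranges overlapped, with medians of 386 CPM in CL and 337 in PI. The median member was not lower in PI in either genotype. The 10 endothelial markers had medians of 0.27 and 0.11 and a median difference of 0.00. The part of these cells in the matrix result was not tested.

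Immediate early transcription factors, which neurons switch on within minutes of activity, had 19 of 22 negative differences and medians of -0.24 in WT, -0.44 in KO and -0.15 for the difference, which was -0.09 without KO6. Within the genotype tables the list was higher in KO by 0.42 in CL and 0.06 in PI, so the lean came with a higher CL level in KO. Klf2, a zinc finger factor of endothelium, stood at 1.05, 1.38 and 1.85 log2 CPM in CL WT, 1.54, 1.97 and 2.09 in PI WT, 2.15, 2.18 and 2.26 in CL KO and 1.57, 1.66 and 1.92 in PI KO. Its difference was -0.96 ± 0.33 (SE), with a response that did not pass in either genotype. Fosl2 responded by -0.22 ± 0.11 in WT and -0.71 ± 0.14 in KO, and Egr2, which was called lower in KO and not in WT, differed by -0.97 ± 0.52. Nr4a2, an orphan nuclear receptor, went the other way, with responses of -1.56 ± 0.14 and -1.24 ± 0.32, and Jun rose by 0.43 and 0.42. Activity-induced effector genes, a list of 25, had a median difference of -0.04: Nptx2 rose by 1.19 and 1.04 and Gadd45b by 1.24 and 0.99.

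Angiogenic genes and 2 receptor families completed the lower end. Angiogenic genes had a median of -0.20 with 10 of 15 negative, and the 1 with an unadjusted p under 0.05 was positive: Angptl4, a lipase inhibitor, at 0.93 ± 0.34 (SE). Notch1 differed by -0.22 ± 0.16. NMDA receptor subunits and metabotropic glutamate receptors each had -0.11, over 6 and 7 genes, the second -0.07 without KO3 and -0.07 without KO5. Grin2b, an NMDA receptor subunit, fell by 0.24 ± 0.06 in WT and 0.37 ± 0.05 in KO, and Grin2a by 0.37 ± 0.06 and 0.30 ± 0.06. Both of these met the likeness bound.

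**Figure D4:**
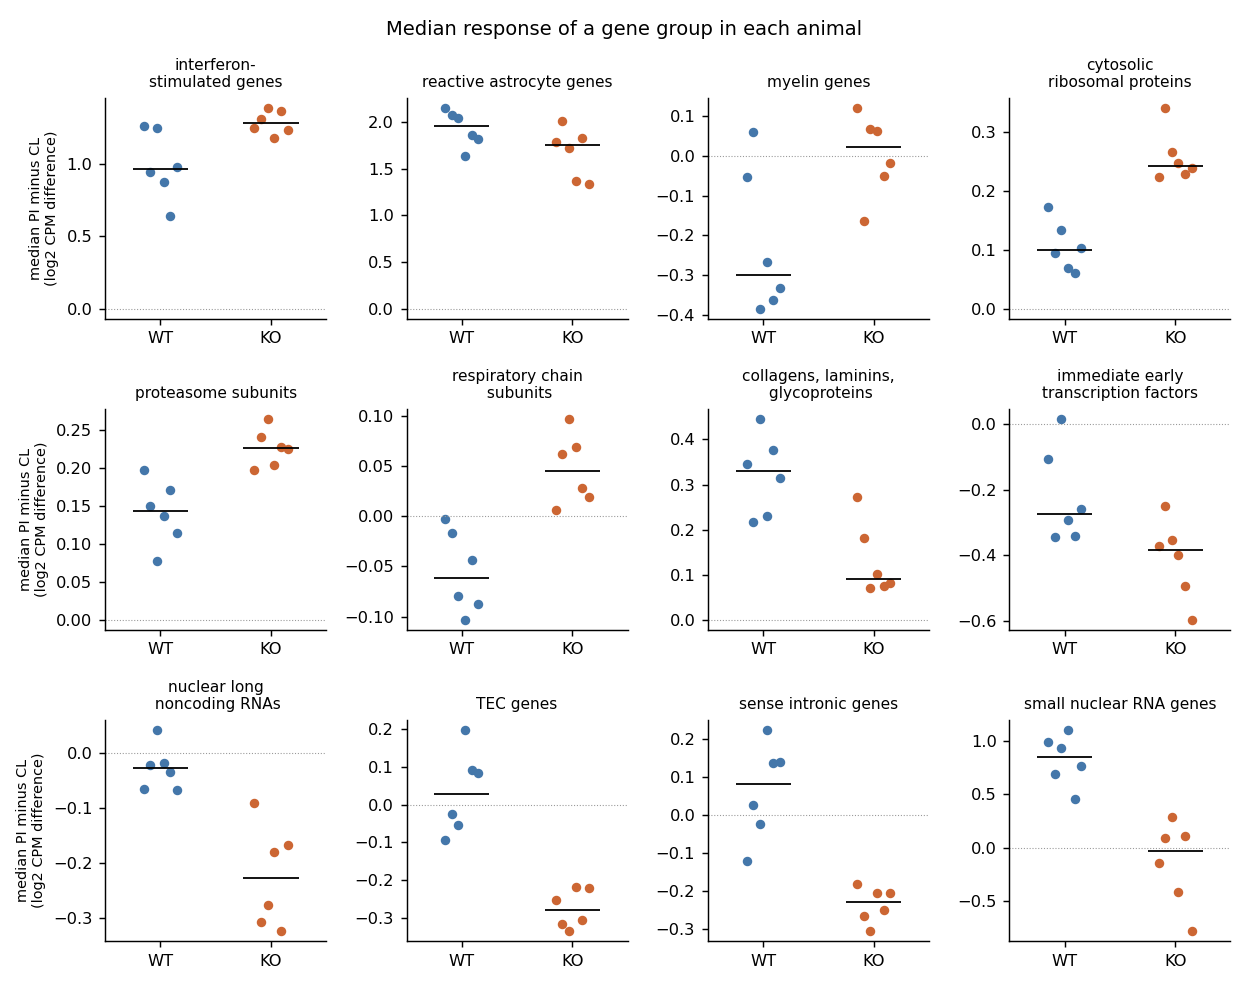
Median PI minus CL difference over the members of 12 gene groups in each of 6 WT (blue) and 6 KO (orange) animals, from the deposited log2 CPM values; horizontal bars are medians over animals and dotted lines mark 0. Small nuclear RNA genes ran from 0.45 to 1.10 in WT and from -0.78 to 0.28 in KO, and reactive astrocyte genes from 1.64 to 2.15 and from 1.33 to 2.01.

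Among the 10 genes with the strongest positive lean by unadjusted p, differences reached 1.78. In all 10, KO was below WT in CL and above WT in PI, neither difference passing its own adjusted test. Of the 10 with the strongest negative lean, 0 were below WT in CL and 0 were above WT in PI. Picking genes by the p of the genotype difference favours such opposite signs, so they are not a separate result. Hibadh, a mitochondrial enzyme of valine breakdown (ENSMUSG00000029776, chr6:52546228-52640389), had the smallest p. It stood at 5.12, 5.23 and 5.28 log2 CPM in CL WT, 5.06, 5.14 and 5.26 in PI WT, 4.80, 4.87 and 4.92 in CL KO and 5.23, 5.31 and 5.32 in PI KO. The CL KO values lay below all other groups, and the difference was 0.49 ± 0.10 (SE) with an interval of 0.28 to 0.71. H2ac18, a replication-type histone gene, differed by 1.78 ± 0.48, with a median of 1.48 in CL KO and 3.34 in PI KO against 2.76 and 2.69 in WT. Histone copies are near identical, so its reads may be shared. Hs6st3, a heparan sulfate sulfotransferase, fell by 0.90 ± 0.13 in WT and had a response of -0.11 ± 0.17 in KO, and the zinc finger gene Gm14419 fell by 0.78 ± 0.10 and had 0.22 ± 0.21. Gm20390 differed by 0.91 ± 0.21, Rpl39-ps, a ribosomal protein pseudogene, by 0.71 ± 0.17, and Heatr1, a factor of ribosome biogenesis, by 0.34 ± 0.10.

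The 10 with the strongest negative lean ranged from -1.39 to -0.44, and 1 of them was annotated as protein coding. That was Mrm1, a mitochondrial ribosomal RNA methyltransferase, with responses of 0.58 ± 0.20 (SE) in WT and -0.42 ± 0.19 in KO. Gm36952, annotated as TEC (a gene model that still needs experimental support; ENSMUSG00000104132, chr1:25797281-25800905), stood at 5.84, 5.90 and 5.97 log2 CPM in CL WT, 5.76, 5.94 and 5.96 in PI WT, 6.07, 6.09 and 6.17 in CL KO and 5.61, 5.63 and 5.77 in PI KO. CL KO lay above and PI KO mostly below the WT groups, and the difference was -0.44 ± 0.10. The TEC models Gm37396, Gm42735 and Gm37060 differed by -1.33 ± 0.32, -1.23 ± 0.32 and -0.60 ± 0.17. Snord3b-ps1, named as a pseudogene of the U3 small nucleolar RNA, differed by -1.15 ± 0.27. Gm24924 and Gm25939, copies of the spliceosomal RNAs U1 and U2, differed by -1.21 ± 0.31 and -0.91 ± 0.26. The other two carry only an identifier, ENSMUSG00000102468 (-0.92 ± 0.25) and ENSMUSG00000096970 (-1.39 ± 0.39).

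Because those names shared annotation classes, all genes were then grouped by GENCODE gene type, a grouping chosen after the values were seen. Of 588 TEC genes 85 had a positive difference (14.5%), and the median was 0.04 in WT, -0.28 in KO and -0.31 for the difference. On the negative side 87 had an unadjusted p under 0.05, against 1 on the positive. Over all genes 2.55% had such a p on the negative side and 2% on the positive. Sense intronic transcripts, which lie inside the introns of another gene, had 13 of 78 positive and a median of -0.30. Small nucleolar RNAs (snoRNAs), most of them cut from introns, had 10 of 34 positive and -0.40, and lincRNAs had 71 of 194 and -0.09. Mitochondrial transfer RNAs had 2 of 22 positive and -0.17, with 0 at an unadjusted p under 0.05 in either direction. Protein-coding genes had 52.4% of 12597 positive and a median of 0.01, and antisense transcripts 0.00.

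The TEC and sense intronic models mostly sit inside other genes. Of the 588 TEC genes, 466 lie within exactly 1 protein-coding gene on the same strand and 242 such host genes are involved. The TEC genes had a median difference of -0.34 and their hosts 0.00, and 398 of the 466 were below their host. For 74 sense intronic genes the medians were -0.33 and, for their 51 hosts, 0.01. For 23 snoRNA genes they were -0.39 and, for 22 hosts, 0.06. Reads within such models can come from the unspliced RNA of the host, and the libraries were made from total RNA after removal of ribosomal RNA. The share of unspliced RNA in each library was not measured here.

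Small nuclear RNA genes gave the widest gap of any type. All 18 had a negative difference, from -3.76 to -0.35, 12 of them with an unadjusted p under 0.05, where 2.55% of all genes had one. Called higher were 10 in WT and none in KO, against 5.2% and 5.11% of all genes. The medians were 0.77 in WT, -0.16 in KO and -1.04 for the difference. U1 and U2 are the RNAs that recognise the 5′ splice site and the branch point in the first steps of splicing. The 5 U1 genes had a median difference of -1.21, the 7 U2 genes -0.91 and the other 6 -0.83. One copy of each is printed from GRCm38 because these families hold 12 of the 18; capitals mark bases 3 to 11 of U1, which pair with the 5′ splice site, and bases 33 to 38 of U2, which pair with the branch point.
Gm22513 (U1), chr12:54696782-54696945, plus strand: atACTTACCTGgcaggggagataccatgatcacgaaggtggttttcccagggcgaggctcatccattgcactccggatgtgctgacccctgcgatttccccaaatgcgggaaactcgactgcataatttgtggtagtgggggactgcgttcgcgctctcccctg
Gm23971 (U2), chr11:101645740-101645930, minus strand: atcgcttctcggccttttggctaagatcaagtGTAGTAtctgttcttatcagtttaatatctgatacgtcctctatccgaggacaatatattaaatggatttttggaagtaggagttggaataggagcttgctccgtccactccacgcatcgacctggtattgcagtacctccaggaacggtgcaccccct

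Copies this alike may share reads, and how such reads were counted is not given in the sources used here. The 5 U1 genes are 98.8% to 99.4% identical to one another and the 7 U2 genes 94.8% to 99.5%, so the genes of a family are not independent. The -3.76 was that of Gm22317, a U1 copy whose SE was 6.06. Gm22513 stood at 5.49, 5.75 and 5.95 log2 CPM in CL WT, 6.15, 6.61 and 6.82 in PI WT, 6.29, 6.46 and 6.75 in CL KO and 5.71, 6.29 and 6.62 in PI KO. Gm23971 stood at 7.08, 7.13 and 7.65 in CL WT, 8.04, 8.20 and 8.28 in PI WT, 7.68, 7.86 and 8.21 in CL KO and 7.57, 7.93 and 8.37 in PI KO. In both genes the CL WT median was the lowest of the 4 and the 2 KO groups overlapped. The differences were -1.08 ± 0.32 (SE) for Gm22513 and -0.88 ± 0.29 for Gm23971.

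Among protein-coding genes the lean moved with length and base composition. They were cut into 5 bins of near equal number. The 2522 with the shortest exonic length, up to 2766 bases, had a median difference of 0.05 with 59.9% positive, and the 2520 longest had -0.01 with 45.4% positive. The 2521 lowest in GC content, up to 43.6%, had 0.05 with 65.3% positive, and the 2520 highest, from 55.3%, had -0.04 with 40.6%. The part of length and GC content in the list results was not tested.

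**Figure D5:**
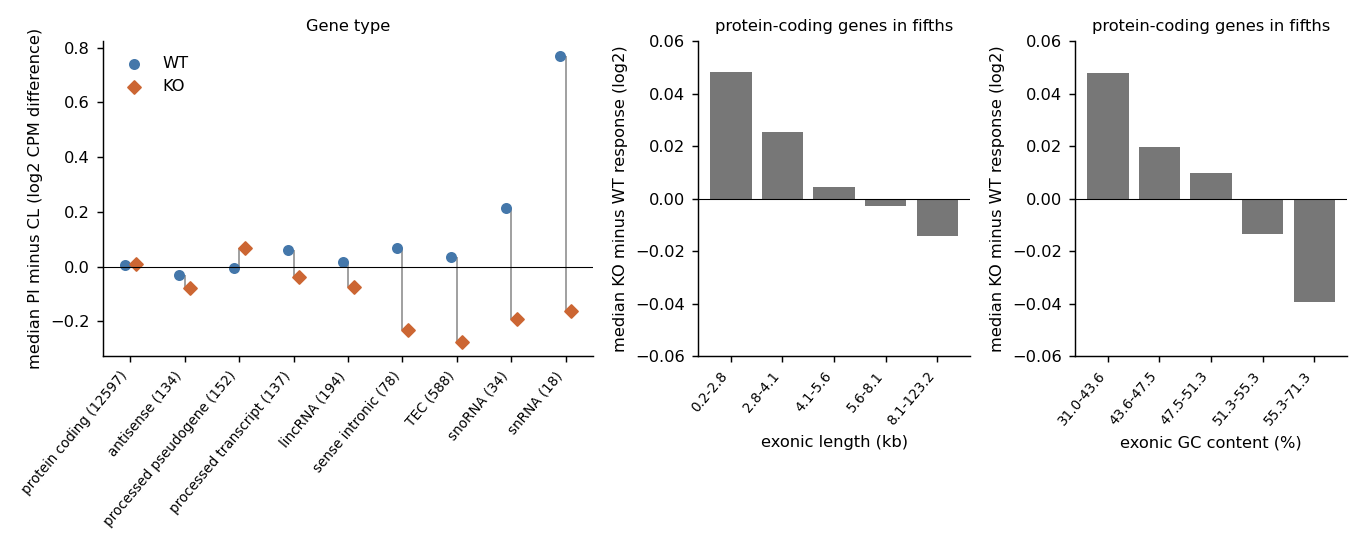
Left, median PI minus CL response of genes of selected annotation types in WT (circles) and KO (diamonds), with the number of genes. Middle and right, median genotype difference of 12597 protein-coding genes in 5 bins of exonic length and of exonic GC content; small nuclear RNA genes stood at 0.77 in WT and -0.16 in KO, and the bins of protein-coding genes between -0.04 and 0.05.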

How the data were processed

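Gene expression in 24 ribosome-depleted cortex libraries of total RNA (per the labels' protocols) is given as log2 CPM, which the authors deposited in 4 tables of 2 groups each. Per the submitters' processing notes the build is mm10. The aligner, counting, use of strand, gene filter and scaling are not given in the sources used here. Samples were grouped by their titles. There were 0 unused columns.

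In each deposited group of 6 the 2 lowest log2 values are equal and the 2 highest are equal. They sit at the quartiles (0.75 times the second value plus 0.25 times the third). The 4 inner values were solved from this: of low values, 77.5% to 88.9% per group then equalled whole reads within 0.03 read, against 10.9% to 13.7% as deposited. Depth came from the same steps. A value at 3 reads is at most 0.801 CPM.

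The main test, written down from an earlier description of these tables, is a moderated trimmed-mean test. It takes the mean of the 4 recovered values per group, with the Winsorized sum of squares (12 degrees of freedom for the interaction, 6 within a genotype), limma's squeezeVar with a trend (limma 3.58.1, R 4.3.3), two-sided p and Benjamini-Hochberg adjustment over all genes. Intervals are 95% and unadjusted for the number of genes. It was tested on simulated data. Animals, not litters or days, are the replicates. CL and PI libraries of an animal are paired by their labels. In 5 of 12 animals the CL library's deviations correlated best with the PI library of the same animal, with correlations of -0.14 to 0.33. Recovered values cannot be tied to libraries, so the block was fitted only to deposited values.

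The groups of genes, the members of the 70 lists and the main test were chosen with earlier results of these data known. Lists come from textbook knowledge, and 68 had at least 3 genes in both tables. Named genes are the 10 with the smallest p in each direction at a mean of at least 1 log2 CPM, those called in both genotypes whose interval stayed closest to 0 (12 that moved by at least 1 log2, 9 of them within the 0.5 bound, and 6 that fell by at least 0.5), 3 by p in each of the 6 highest and 6 lowest lists, all network members, and the 2 strongest responders of a list. Further members named to show the spread of a list, and the U1 and U2 copies printed, were chosen after their values were seen. Gene identity came from GENCODE M21 (GRCm38), with 14385 matched by symbol, 62 by identifier, 207 by an older symbol, and 115 not. Alternatives were other scalings, filters, pseudocounts and priors, ordinary limma with and without the animal, and leaving out each animal. Results of some genes are not reported here.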

Additional observations from a re-analysis of the deposited data

Results flagged for a closer look

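These flags are on the median response of a gene group in each animal. For an animal that stands apart, 146 sets of 6 animals (73 groups of genes in 2 genotypes) were examined, where chance flags about 1 in 20. In 4 sets 1 animal stood apart from the other 5. KO2 had a ribosomal protein median of 0.34 where the other KO animals had 0.22 to 0.27. KO3 had an endothelial marker median of 0.29 and a meninges and fibroblast marker median of -0.24, each the far end of its genotype. WT6 had a circadian clock median of -0.30.

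In 2 lists every WT animal was on one side of 0 and every KO animal on the other, and that difference between genotypes was not tested for the list. Respiratory chain subunits were below 0 in 6 of 6 WT and above 0 in 6 of 6 KO animals, with a median genotype difference of 0.11. The highest WT animal was at -0.003 and the lowest KO animal at 0.006. Chemokine ligands ran from 0.11 to 0.20 in WT and from -0.14 to -0.05 in KO, over 8 of 20 listed genes, yet the median of the members' genotype differences was -0.020.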

How the results depend on the processing

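No gene was called for the interaction by the trimmed-mean test under any of its alternatives: the 2 genotype tables, centring on the median gene, a filter at 1 log2 CPM, log2(CPM + 1), a prior with no trend, and values under 3 reads set to that limit (the last chosen after seeing the data). At an unadjusted p under 0.05 they gave 612 to 686 genes. Ordinary limma on the deposited values, whose spread is narrowed, called 1940 genes for the interaction (4154 at an unadjusted p under 0.05), 6459 in WT and 6666 in KO. With the animal as a replicate block, which pairs CL and PI, the counts were 1895, 4356, 6614 and 6759. Leaving out animals was also added after seeing the data. Without KO6, whose CL library is the shallowest, the limma counts were 1423, 3743 and, in KO, 6058. Without a trend in the prior, WT calls were 1015, KO calls 739 and alike genes 194. A bound of 0.25 gave 178 alike genes. The cause of these changes beyond the narrowed spread was not tested. With 1 animal left out of the means of the deposited values, the median difference of interferon-stimulated genes ran from 0.31 to 0.38, ribosomal proteins 0.13 to 0.16, myelin genes 0.16 to 0.24, matrix genes -0.25 to -0.17, nuclear long noncoding RNAs -0.24 to -0.20, TEC genes -0.33 to -0.27 and small nuclear RNA genes -1.12 to -0.89. Haemoglobin transcripts (4 genes) ran from -0.55 to 0.02. Of the named genes none reversed. Depth limits genes under 2 log2 CPM, where 0.219% had an interval reaching less than 0.5 to either side.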
